A study of Mus musculus with 4 samples.

Results

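The 37 genes described here encode enzymes of the 2-oxoglutarate oxygenase family, or close relatives grouped with them, that act mainly on methyl groups of histones, DNA and RNA or add hydroxyl groups to proteins and lipids. They were chosen by what their products are known to do, at a time when earlier results of these data were known, and the rule itself uses no measured value. The hydroxylases of hypoxia-inducible factors and the classical targets of these factors were left out. All 37 were on the array, out of 18194 genes in all, and they were measured by 87 of its 45101 probe sets, a probe set being a group of short probes for 1 transcript. They are 18 proteins with a Jumonji C (JmjC) domain (the histone demethylases of the KDM and PHF groups and 4 small JmjC proteins), the 3 Tet enzymes of DNA, the 8 AlkB homologues and Fto, and 7 hydroxylases.

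Enzymes of this family use molecular oxygen, iron and 2-oxoglutarate to oxidize a substrate, and they release succinate and carbon dioxide. A hydroxylated methyl group on a nitrogen, be it of a lysine or of a base in DNA or RNA, falls off as formaldehyde, so that the same chemistry removes methyl marks. Because oxygen is a substrate, the activity of some members is limited when oxygen is scarce. Kdm6b is also known as a gene that macrophages induce on inflammatory stimulation, and Tet2 as an enzyme that restrains Il6 expression in macrophages. Expression arrays measure the RNA of these genes and not the activity of the enzymes.

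The samples were cultures of RAW264.7, a mouse macrophage line, grown in DMEM with 10% fetal bovine serum and kept for 4 days under 1 of 4 conditions. Control cultures were kept in normoxia (NC) or in hypoxia of 1% oxygen (HC). The others received IL6, a cytokine that activates STAT3, at 25 ng/ml, in normoxia (NC+IL6) or in hypoxia (HC+IL6). The sources used here do not give the oxygen level of normoxia. Each condition was measured on 1 Affymetrix mouse expression array, so that the number of arrays limits the precision, no comparison has a replicate check and no p-value is given. A single line stands for the macrophage here, and in RNA from a whole culture fewer cells of a kind and less RNA per cell cannot be told apart.

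Values are log2 signals, which the authors made with MAS5 and which have the same trimmed mean signal on each array. Background was read from genes of other tissues, separately for every array, and the resulting floors on the log2 scale were 6.50 in NC, 6.71 in HC, 6.12 in NC+IL6 and 6.23 in HC+IL6. Between 39.5% and 45.3% of all probe sets were above the floor of their array. A gene with several probe sets was read from the one with the highest mean log2 signal. A gene was called when the brighter of the compared signals passed its floor and was 2-fold or more the dimmer one, which was first raised to the floor where it lay under it, and a fold against a raised signal is written as "at least". All 10 macrophage markers were above the floor on every array. None of the 5 fibroblast, 4 T cell and 4 B cell markers on the array was, and of the epithelial and endothelial markers only Epcam, in NC and HC+IL6, and Kdr, in HC+IL6, passed it. As a measure of how far a log2 ratio can be trusted, the pooled SD between probe sets of the same gene was 0.35 for HC over NC, 0.36 for HC+IL6 over NC+IL6, 0.30 for NC+IL6 over NC and 0.33 for HC+IL6 over HC. This SD reflects disagreement between probes and not variation between cultures.

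Of the 37 genes, 31 were above the floor on all 4 arrays, Kdm4b and Kdm5b on some arrays, and Tet1, Tet3, P4htm and P4ha3 on none. The family was thus detected broadly in these macrophages, and 6 of the 33 detected members, Kdm7a, Kdm6b, Kdm5b, Kdm4c, Jmjd4 and Hspbap1, were called in at least 1 of the 4 comparisons, beside 12.1% of the 10430 genes detected on the whole array. All 6 encode JmjC proteins. No AlkB homologue, Tet enzyme or hydroxylase was called.

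**Figure D1:**
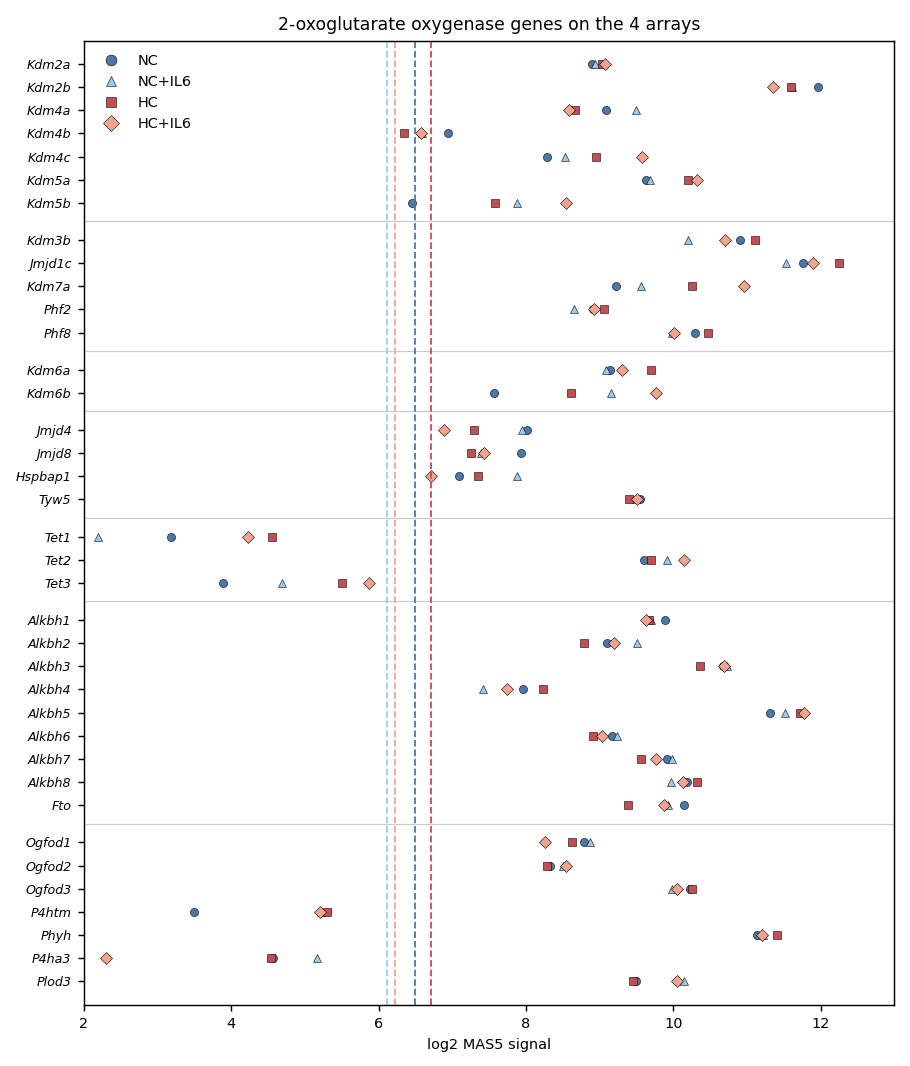
Log2 signal (horizontal axis) of each of the 37 genes (vertical axis) on the 4 arrays, 1 point per array, with the background floors as vertical lines. Tet1, Tet3, P4htm and P4ha3 lie under the floor on every array, and Kdm6b, Kdm5b and Kdm7a show wide gaps between the conditions.

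The first question was how the family differed between hypoxia and normoxia, without and with IL6. In HC, 3 members were called higher than in NC and 0 lower, beside 3.95% of 9526 genes called higher and 1.06% called lower on the whole array. In HC+IL6, 2 members were called higher than in NC+IL6 and 2 lower, beside 3.54% of 10298 genes called higher and 1.48% called lower. The members called higher in HC were Kdm7a, Kdm6b and Kdm5b, and those called higher in HC+IL6 were Kdm7a and Kdm4c. Jmjd4 and Hspbap1 were the members called lower in HC+IL6.

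Most members differed little. The median log2 ratio over the 33 detected members was 0.10 for HC over NC and 0.03 for HC+IL6 over NC+IL6, beside 0.05 and 0.04 over the 10430 genes detected in the same way. The members' ratios ran from -0.76 to 1.14 (the latter for Kdm5b, which was under the floor in NC) and from -1.17 to 1.40, and 19 and 22 of the 33 lay within 1 pooled SD of 0. These comparisons share no array. In both of them 16 members had a positive ratio, 12 had a negative ratio in both, and 5 had opposite signs. Agreement in sign was not counted over all genes, so these numbers are not read as a trait of the members. The size of these counts depends on how the arrays are scaled. Over all genes, 78.8% of those called for HC and NC were higher in HC with the deposited scaling, 58.8% after quantile normalization and 62.1% after cyclic loess, and for HC+IL6 and NC+IL6 the shares were 70.6%, 47.9% and 47.7%.

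**Figure D2:**
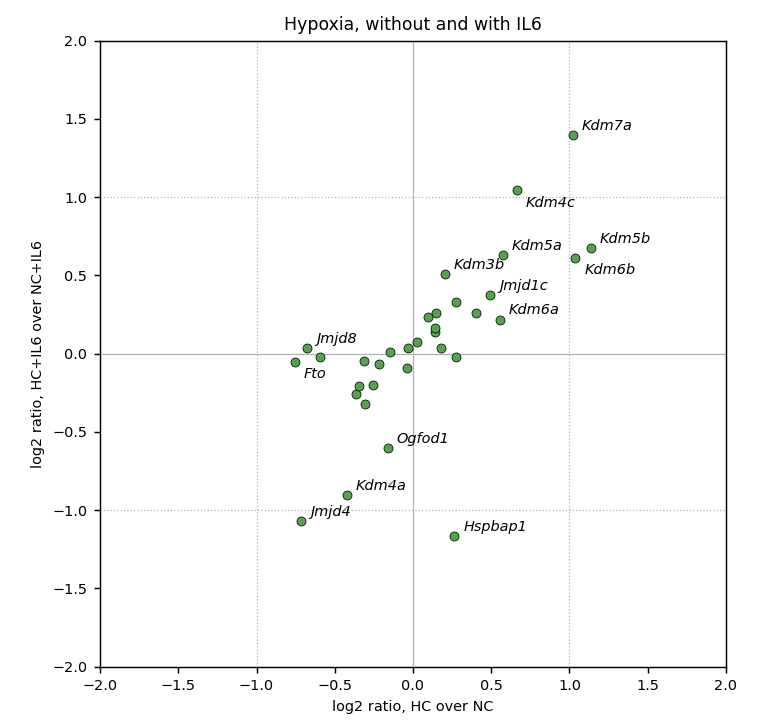
Log2 ratio of HC over NC (horizontal axis) against that of HC+IL6 over NC+IL6 (vertical axis) for the 33 detected members, 1 point per gene, with dotted lines at 2-fold. Kdm7a lies past 2-fold in both, at 1.02 and 1.40, and Hspbap1 lies far below 0 with IL6 at -1.17.

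Kdm7a was the member called in both hypoxia comparisons. It lies at chr6:39136620-39206773 (GRCm38.p6) and encodes a demethylase of H3K9 and H3K27 that removes the mono- and dimethyl states. Its log2 signal was 9.22 in NC, 10.25 in HC, 9.56 in NC+IL6 and 10.96 in HC+IL6. Both hypoxic arrays were thus above both normoxic arrays, with folds of 2.03 for HC over NC and 2.63 for HC+IL6 over NC+IL6. A second probe set of the gene read 8.69, 9.95, 9.30 and 10.67 on the same arrays in that order, which is 2.39-fold and 2.59-fold higher in hypoxia. A dimmer one read 6.73, 6.94, 7.34 and 7.68, with log2 ratios of 0.21 and 0.35, and the other probe sets were under the floor. The fold of HC over NC was 1.91 after quantile normalization and 1.97 after cyclic loess, just under 2, while the log2 ratio of HC+IL6 over NC+IL6 was 1.38 and 1.36. With the mean over all its probe sets, those under the floor included, Kdm7a was called in neither comparison.

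The other members grouped with Kdm7a as H3K9 demethylases were Kdm3b, Jmjd1c, Phf2 and Phf8. By the probe set used for each gene, all 5 had positive log2 ratios in both hypoxia comparisons, with a median of 0.20 and 0.38. With the mean over the probe sets of a gene, Phf2 and Phf8 had negative ratios for HC over NC, -0.39 and -0.33. The further probe sets of both genes that this mean takes in were under the floor on every array. Kdm7a was the only one called. Jmjd1c, which encodes a JmjC protein of the KDM3 type, had log2 signals of 11.75 in NC, 12.24 in HC, 11.52 in NC+IL6 and 11.90 in HC+IL6. Hypoxia was 1.41-fold and 1.30-fold above normoxia in these signals, less than the call requires. Kdm3b, a demethylase of H3K9, read 10.91, 11.11, 10.20 and 10.70 in the same order. A second Kdm3b probe set, above the floor on all arrays, gave negative log2 ratios in hypoxia, -0.08 and -0.32. Phf2 and Phf8 had ratios of 0.15 and 0.18 without IL6. Kdm3a, a close relative and a known target of hypoxia-inducible factors that was listed with the related genes, was 1.72-fold and 1.36-fold higher, which also fell short of 2-fold.

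Kdm6b and Kdm6a, which encode demethylases of trimethylated H3K27, differed from each other. Kdm6b (chr11:69398508-69420367) had log2 signals of 7.57 in NC, 8.61 in HC, 9.15 in NC+IL6 and 9.76 in HC+IL6. The signal was lowest in NC and highest in HC+IL6, and NC+IL6 lay above HC. It was 2.05-fold higher for HC over NC and 1.53-fold higher for HC+IL6 over NC+IL6, so that the call was made only without IL6. The fold of HC over NC was 1.79 after quantile normalization and 1.86 after cyclic loess. A second probe set, whose name marks it as open to cross-hybridization, gave log2 ratios of 0.60 and 0.68. Kdm6a, the X-linked relative, read 9.14, 9.69, 9.09 and 9.30 in the same order and was 1.47-fold higher for HC over NC. Its second probe set gave log2 ratios of 0.00 and 0.06.

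The 7 members of the KDM2, KDM4 and KDM5 families, whose products remove methyl groups from H3K4, H3K9 and H3K36, did not move as a block. Of these, 4 had positive and 3 negative ratios in each hypoxia comparison, with a median log2 ratio of 0.14 in both. Kdm5b (chr1:134560178-134632878), a demethylase of H3K4, read 6.45 in NC, 7.59 in HC, 7.87 in NC+IL6 and 8.55 in HC+IL6. It was under the floor in NC and above it on the other 3 arrays, at least 2.12-fold higher for HC over NC and 1.60-fold higher for HC+IL6 over NC+IL6. The fold of HC over NC was 1.75 and 1.88 under the same other scalings, and with a floor of 7.5 on the log2 scale, chosen after seeing the data, Kdm5b was not called in any comparison. Its other 3 probe sets were above the floor on at most 1 array, HC+IL6. Kdm5a, its relative, read 9.63, 10.20, 9.69 and 10.31 in the same order, 1.49-fold and 1.55-fold higher in hypoxia and not called.

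Kdm4c (chr4:74242497-74405864), a demethylase of trimethylated H3K9 and H3K36, had log2 signals of 8.29 in NC, 8.95 in HC, 8.54 in NC+IL6 and 9.58 in HC+IL6. Both hypoxic arrays were above both normoxic ones, and the fold was 1.58 without IL6 and 2.06 with it. The latter was 1.92 after quantile normalization and 1.90 after cyclic loess. Kdm4a, of the same family, had the opposite sign and read 9.09, 8.66, 9.49 and 8.59. It was 1.87-fold lower for HC+IL6 over NC+IL6, which became 2.01-fold and 2.02-fold, and thus a call, under these scalings. Kdm4b was under the floor in HC, at 6.34, and between 6.57 and 6.94 on the other arrays. Kdm2a differed little, with signals from 8.90 to 9.07, and Kdm2b ranged from 11.35 in HC+IL6 to 11.96 in NC.

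Hypoxia-inducible factors, which raise the transcription of many genes when oxygen is low, bind DNA at the core letters ACGTG or GCGTG, and the promoters of the members were searched for them. The 250 bases before annotated start sites were read from RefSeq (GRCm38.p6), which gave 38 windows for 31 of the 37 members. A gene can have several start sites, and 13 of these windows, among them those shown for Kdm4c and Hspbap1, lie wholly within the span given for the gene. Kdm6b was among those with no entry. On either strand, ACGTG or GCGTG stood in 19 of the 38 windows, of 16 genes, beside 38.6% of 32851 windows of the same length over the genome. The 5 called members with a window all held it, and so did 11 of the other 26. These counts are per gene, and a gene with several windows counts if any of them holds the letters. The share of 38.6% is per window and is not a like measure. A difference between called and other members was not tested. The windows of the members that were called in hypoxia and had an entry are shown next, 5' to 3' on the strand of the gene, with these letters and their reverse complements in capitals. A palindromic CACGTG holds ACGTG on both strands.
Kdm7a, chr6:39206774-39207023, minus strand: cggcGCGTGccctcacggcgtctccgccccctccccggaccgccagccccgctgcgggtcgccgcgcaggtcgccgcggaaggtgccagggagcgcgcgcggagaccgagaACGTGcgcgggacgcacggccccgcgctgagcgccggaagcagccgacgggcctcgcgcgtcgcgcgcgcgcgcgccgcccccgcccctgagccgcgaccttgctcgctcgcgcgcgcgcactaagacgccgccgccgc
Kdm5b, chr1:134559928-134560177, plus strand: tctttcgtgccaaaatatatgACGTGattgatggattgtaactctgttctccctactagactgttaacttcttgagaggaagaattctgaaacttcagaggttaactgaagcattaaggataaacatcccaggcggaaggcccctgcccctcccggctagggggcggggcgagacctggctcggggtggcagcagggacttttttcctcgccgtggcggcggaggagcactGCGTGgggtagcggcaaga
Kdm4c, internal start, chr4:74251629-74251878, plus strand: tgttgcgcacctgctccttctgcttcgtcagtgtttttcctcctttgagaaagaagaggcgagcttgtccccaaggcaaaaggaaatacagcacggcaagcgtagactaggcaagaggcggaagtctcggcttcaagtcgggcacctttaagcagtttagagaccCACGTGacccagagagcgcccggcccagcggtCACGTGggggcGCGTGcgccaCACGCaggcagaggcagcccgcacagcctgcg
Jmjd4, chr11:59449795-59450044, plus strand: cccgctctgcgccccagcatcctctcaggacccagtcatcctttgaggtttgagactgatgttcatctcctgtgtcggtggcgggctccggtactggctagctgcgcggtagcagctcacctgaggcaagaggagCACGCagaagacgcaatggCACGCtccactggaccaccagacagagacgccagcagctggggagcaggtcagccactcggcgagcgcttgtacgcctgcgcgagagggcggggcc
Hspbap1, internal start, chr16:35770136-35770385, plus strand: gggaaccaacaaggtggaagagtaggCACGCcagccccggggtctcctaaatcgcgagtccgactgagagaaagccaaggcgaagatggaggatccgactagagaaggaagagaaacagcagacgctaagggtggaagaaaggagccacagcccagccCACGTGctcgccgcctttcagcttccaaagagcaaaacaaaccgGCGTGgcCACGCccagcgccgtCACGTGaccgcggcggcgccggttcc
The letters were present in windows of members called higher in hypoxia (Kdm7a, Kdm5b and Kdm4c) and in those of members called lower (Jmjd4 and Hspbap1). The window before the first Kdm4c start, chr4:74242247-74242496, held none. A match is a description of the letters and does not show binding. The letters TTCNNNGAA, the site bound by STAT factors such as STAT3, were found in 1 member window, that of Fto, beside 7.02% of all windows.

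**Figure D3:**
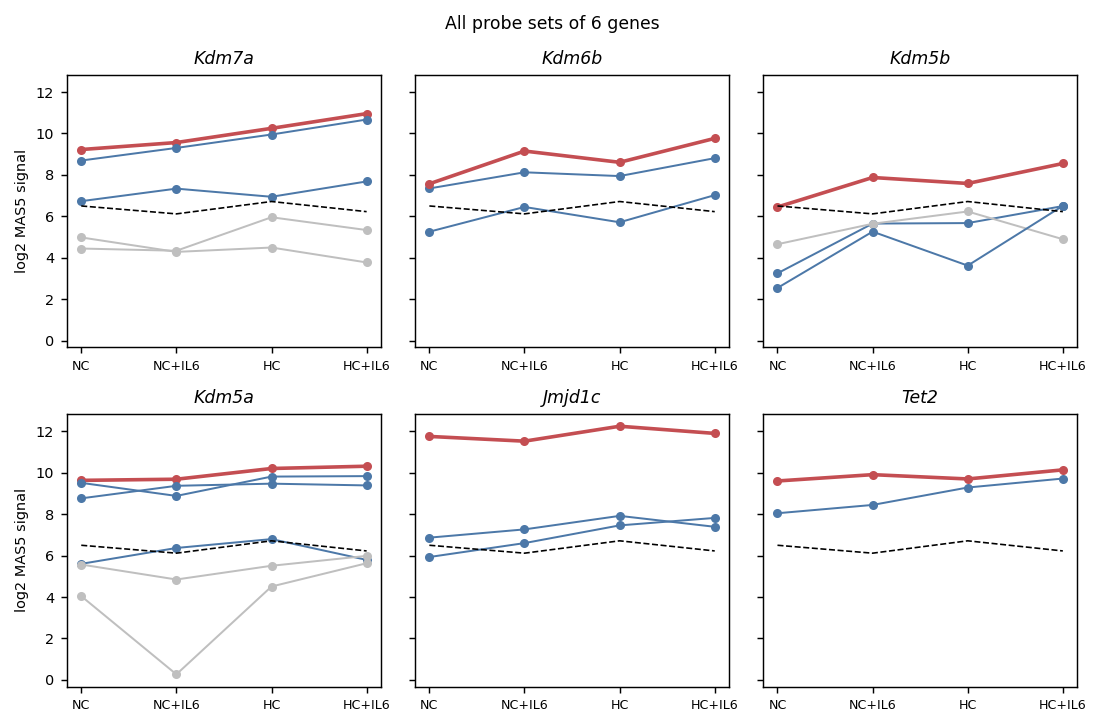
Log2 signal (vertical axis) on the 4 arrays (horizontal axis) of every probe set of the members shown, with the probe set used for the gene in red, others above the floor on at least 1 array in blue, those under it in grey and the floors dashed. The second Tet2 probe set differs by 2.37-fold between HC and NC and the one used for the gene by a log2 ratio of 0.10.

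The 4 small JmjC proteins gave the calls in the lower direction. Jmjd4 (chr11:59450032-59462971), whose human product hydroxylates a translation termination factor, had log2 signals of 8.01 in NC, 7.30 in HC, 7.95 in NC+IL6 and 6.88 in HC+IL6. Both hypoxic arrays were below both normoxic ones, by 1.64-fold without IL6 and 2.10-fold with it. Hspbap1 (chr16:35769726-35828462), named for its binding to a small heat shock protein, read 7.08, 7.35, 7.88 and 6.71 in the same order. It was highest in NC+IL6 and lowest in HC+IL6, a difference of 2.25-fold, while HC over NC had a log2 ratio of 0.26. Its probe set carries the mark for probes that can match other transcripts, and the other probe sets of both genes were under the floor on all arrays. With the floor of 7.5 neither gene was called. Jmjd8 read 7.93, 7.26, 7.39 and 7.42, which is 1.60-fold lower for HC over NC and a log2 ratio of 0.03 with IL6. Tyw5, which hydroxylates a modified base of transfer RNA, stayed between 9.40 and 9.55.

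Of the Tet enzymes, which oxidize 5-methylcytosine in DNA, only Tet2 was detected. The probe set used for Tet2 (chr3:133463677-133545136) read 9.60 in NC, 9.70 in HC, 9.91 in NC+IL6 and 10.14 in HC+IL6, with log2 ratios in hypoxia of 0.10 and 0.23. The second Tet2 probe set gave another picture. It read 8.04, 9.29, 8.45 and 9.72, above the floor on every array, and was 2.37-fold higher for HC over NC and 2.42-fold higher for HC+IL6 over NC+IL6. The probe sets of this gene thus differed in their hypoxia ratio by more than the pooled SD of 0.35, and no call was made for Tet2 on the rule used. Tet1 ranged from 2.20 to 4.56 and Tet3 from 3.89 to 5.86, under the floor on every array.

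The AlkB homologues and Fto, 9 genes, include enzymes that repair or edit methylated bases of DNA and RNA. Of the 9 genes, 3 had positive and 6 negative ratios in each hypoxia comparison, with medians of -0.26 and -0.05, and none was called. Fto and Alkbh5, the enzymes that remove N6-methyladenosine from RNA, had opposite signs without IL6. Fto (chr8:91313367-91668433) read 10.14 in NC, 9.38 in HC, 9.92 in NC+IL6 and 9.87 in HC+IL6. It was 1.69-fold lower for HC over NC, and the log2 ratio with IL6 was -0.05, so that HC was the array that stood below the rest. Alkbh5, known as a target of hypoxia-inducible factors in human cells, read 11.31, 11.72, 11.52 and 11.77, with log2 ratios of 0.40 and 0.26. Alkbh1, Alkbh2, Alkbh3, Alkbh6 and Alkbh7 had negative ratios in both comparisons, between -0.35 and -0.04. Alkbh4 and Alkbh8 had positive ones, from 0.14 to 0.33. The other Alkbh4 probe sets were also higher for HC over NC but gave -0.12 and -0.35 for HC+IL6 over NC+IL6. The Alkbh4 probe set used carries the mark for probes that can match other transcripts. A second Alkbh3 probe set differed from the one used, with ratios of 0.75 and 0.52 against -0.32 and -0.04.

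Of the 7 hydroxylases, 5 were detected and none was called. Plod3, a lysyl hydroxylase of collagen, read 9.50 in NC, 9.46 in HC, 10.14 in NC+IL6 and 10.05 in HC+IL6, so that its arrays paired by IL6 and not by oxygen, with hypoxia ratios of -0.04 and -0.09. Ogfod1, which hydroxylates a proline of a ribosomal protein, was 1.52-fold lower for HC+IL6 over NC+IL6, and a second probe set gave a log2 ratio of -0.89 there. Ogfod2, Ogfod3 and Phyh, the last an enzyme of phytanic acid breakdown in peroxisomes, had hypoxia ratios between -0.03 and 0.27. P4htm, a transmembrane prolyl hydroxylase, and P4ha3, a collagen prolyl hydroxylase, were under the floor on every array, from 3.50 to 5.30 and from 2.30 to 5.16.

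The comparisons with and without IL6 asked the same of the cytokine. In NC+IL6, 2 members, Kdm6b and Kdm5b, were called higher than in NC and 0 lower, beside 3.47% of 9846 genes called higher and 1.32% lower. In HC+IL6, Kdm6b was the 1 member called higher than in HC and 0 were lower, beside 2.35% of 10001 genes called higher and 2.1% lower. Median log2 ratios over the 33 members were 0.05 and 0.06, beside -0.03 and -0.01 over all detected genes, and 19 and 17 members lay within 1 pooled SD of 0. The IL6 comparisons share no array with each other, but each shares an array with both hypoxia comparisons. In both, 14 members had positive ratios, 11 had negative ratios and 8 had opposite signs. Here too, agreement in sign was not counted over all genes.

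Kdm6b was 2.99-fold higher in NC+IL6 than in NC and 2.23-fold higher in HC+IL6 than in HC, from the signals given above. Its second probe set gave log2 ratios of 0.78 and 0.86, and both had their highest signal in HC+IL6. Another was under the floor in NC and HC, so that its folds are bounds, at least 1.03 and at least 1.24. The log2 ratios of the probe set used were 1.53 and 1.23 after quantile normalization and 1.61 and 1.20 after cyclic loess. Kdm5b was at least 2.59-fold higher in NC+IL6 than in NC and 1.95-fold higher in HC+IL6 than in HC, a value that passed 2-fold, at 2.07 and 2.01, under the other scalings. Kdm7a and Kdm4c were 1.64-fold and 1.55-fold higher in HC+IL6 than in HC, with 1.26-fold and 1.19-fold in normoxia.

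**Figure D4:**
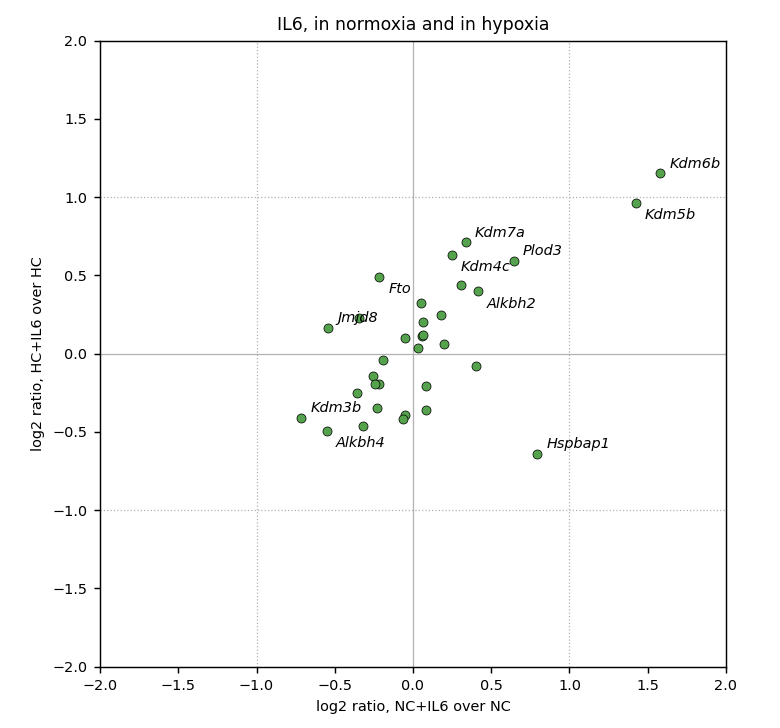
Log2 ratio of NC+IL6 over NC (horizontal axis) against that of HC+IL6 over HC (vertical axis) for the 33 detected members, 1 point per gene, with dotted lines at 2-fold. Kdm6b lies at 1.58 and 1.15, Kdm5b at 1.43 (with NC under the floor) and 0.96, and Hspbap1 at 0.79 and -0.64.

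Among members that were not called, Plod3 was 1.56-fold and 1.51-fold higher with IL6, and Alkbh2, a DNA repair enzyme, had log2 ratios of 0.41 and 0.40. Tet2 had 0.30 and 0.44, and its second probe set 0.40 and 0.43, so that the Tet2 probe sets lay close in these comparisons. Kdm3b was 1.64-fold lower in NC+IL6 than in NC and 1.33-fold lower in HC+IL6 than in HC. Within its group of 5 H3K9 demethylases, 4 had negative ratios in both IL6 comparisons by the probe set used, and Kdm7a was the exception. The group medians were -0.26 and -0.35. A further Jmjd1c probe set gave 0.40 in normoxia and -0.53 in hypoxia. Another, under the floor in NC, was at least 1.07-fold higher with IL6 in normoxia and gave 0.36 in hypoxia. With the mean over the probe sets of a gene, Jmjd1c had 0.28 in normoxia, and Phf2 and Phf8 had 0.37 and 0.61 in hypoxia. Alkbh4 had ratios of -0.55 and -0.49. In normoxia its other probe sets went the other way, one at 0.08 and one at least 1.57-fold higher with IL6. Hspbap1 was 1.73-fold higher with IL6 in normoxia and 1.56-fold lower with it in hypoxia. For Fto the ratio was -0.21 in normoxia and 0.49 in hypoxia.

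The hypoxia ratio with IL6 minus that without it was -1.43 for Hspbap1, 0.71 for Jmjd8 and 0.70 for Fto. It was 0.38 for Kdm4c and 0.37 for Kdm7a, and -0.48 for Kdm4a and -0.43 for Kdm6b. These sizes are near the pooled SDs of the single hypoxia ratios, 0.35 and 0.36. The second Kdm6b probe set, with hypoxia ratios of 0.60 without IL6 and 0.68 with it, did not share the negative sign. Kdm4b and Kdm5b, each under the floor on 1 array, are left out here. With 1 array per condition none of these differences was tested. The highest log2 signal of the 4 was in HC+IL6 for Kdm7a, Kdm6b, Kdm5b and Kdm4c, and the lowest for each of these was in NC. By the probe set used, the same held for Kdm2a, Kdm5a, Tet2 and Alkbh5, which were not called, though Kdm2a ranged only from 8.90 to 9.07. Some further detected probe sets of Kdm2a and Kdm5a were instead highest in HC. An example for Kdm2a read 7.99 in HC and 7.84 in HC+IL6, and for Kdm5a 9.47 and 9.39. The share of all genes with this order was not counted.

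Several members were measured by probe sets that did not give the same ratio, and the size of these gaps sets how firmly a single value can be read. Besides Tet2, 2 further probe sets of Jmjd1c differed from the one used. The first read 6.87 in NC, 7.92 in HC, 7.27 in NC+IL6 and 7.39 in HC+IL6, with log2 ratios of 1.05 and 0.13. The other read 5.93, 7.46, 6.60 and 7.82 and was at least 1.94-fold higher for HC over NC and 2.32-fold higher for HC+IL6 over NC+IL6. For Kdm5a the further probe sets gave 0.71 and 0.30 for HC over NC and 0.02 and 0.96 for HC+IL6 over NC+IL6. For Kdm2a, whose probe sets numbered 7, one that was under the floor in NC was at least 1.63-fold and 1.85-fold higher in hypoxia, another, above the floor on all arrays, gave log2 ratios of 0.25 and 0.06, and the one used gave 0.14 and 0.14.

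The related enzymes were read from lists of genes of the same pathways. Of 26 other 2-oxoglutarate oxygenases on the array, 21 were detected. They include hydroxylases and classical targets of hypoxia-inducible factors, which were left out of the members. A gap in hypoxia between this list and the members was thus partly built into the choice. In HC, Egln1, Egln3 and P3h3 were called higher than in NC and 0 genes lower, with a median log2 ratio of 0.28. In HC+IL6, these 3 genes and P4ha2, Plod1 and Plod2 were called higher than in NC+IL6 and 0 lower, with a median of 0.37. Egln1 and Egln3, the prolyl hydroxylases that mark hypoxia-inducible factors for breakdown, were 2.22-fold and at least 2.86-fold higher in HC, and 2.11-fold and 2.55-fold higher in HC+IL6. P3h3, P4ha2, Plod1 and Plod2 encode collagen hydroxylases or, for P3h3, a relative of them. P4ha2 was 4.81-fold higher for HC+IL6 over NC+IL6 and 3.34-fold higher than in HC, and it was the 1 gene of the list called for IL6.

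**Figure D5:**
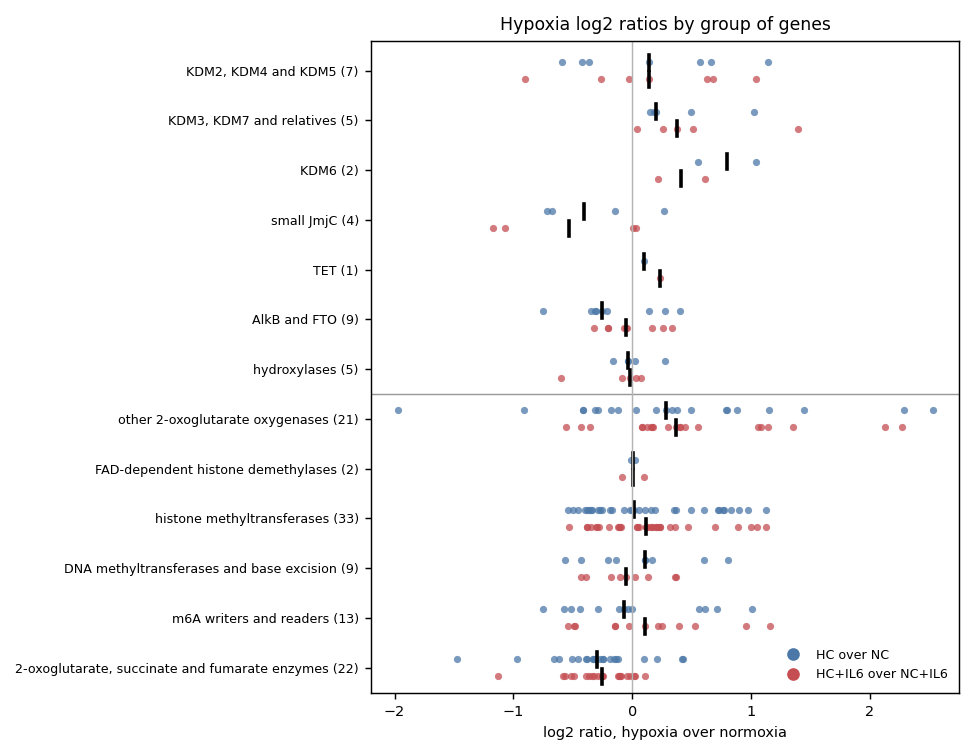
Log2 ratios in the hypoxia comparisons (horizontal axis, blue without IL6 and red with it) of the detected genes of each group of members and, under the line, of each list of related genes (vertical axis, number of genes in brackets), 1 point per gene, with black bars at the medians. The 5 H3K9 demethylases, shown as KDM3, KDM7 and relatives, lie above 0 in both comparisons by the probe set used. Their medians are 0.20 and 0.38, and those of the small JmjC proteins are -0.41 and -0.53.

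The genes with the opposite function, which write methyl marks, and genes that work with them gave few calls. Of 33 genes for histone methyltransferases or other parts of their complexes, all were detected. Among these, Kmt2a was 2.18-fold and 2.07-fold higher in hypoxia and Prdm2 2.19-fold higher for HC+IL6 over NC+IL6. None was called for IL6, where the medians were -0.26 and -0.14. Of 13 writers and readers of N6-methyladenosine, Ythdf3, a reader, was 2.01-fold and 2.23-fold higher in hypoxia, and Rbm15b, a part of the writer complex, was 2.09-fold lower in NC+IL6 than in NC. None of 9 genes related to DNA methylation or base excision was called in any comparison. Neither was Kdm1a or Kdm1b, the demethylases that use FAD in place of oxygenase chemistry. Of 22 enzymes that make or use 2-oxoglutarate, succinate or fumarate, 18 had negative ratios in HC over NC and 19 in HC+IL6 over NC+IL6, with medians of -0.29 and -0.25. Over all 10430 detected genes, 4773 and 4853 had negative ratios. This list was not read under the other scalings. Bcat1, a transaminase of branched-chain amino acids that yields or consumes 2-oxoglutarate, was 2.77-fold and 2.19-fold lower in hypoxia. Gpt2, the mitochondrial alanine transaminase, was 2.16-fold higher in NC+IL6 than in NC.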

How the data were processed

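RNA of RAW264.7 macrophages from NC, NC+IL6, HC and HC+IL6 was hybridized to 1 array each. The authors summarized the probes with MAS5 (the sources used here give no version) and deposited the log2 signals of 45101 probe sets per array. All arrays were scaled to a mean of 500, taken without the outer 2% of signals on either side, and signals of 1 or less are listed as 0, which is the case for 256 to 437 probe sets per array.

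Log2 ratios and folds between arrays were computed from these values with Python 3.11.15, numpy 2.4.6 and pandas 2.3.3, and drawn with matplotlib 3.10.9. Gene names came from an annotation of the probe sets, in which 34958 carry 1 symbol, 932 carry several and 9211 are not listed. Of these, 34754 were matched by gene number to RefSeq GRCm38.p6, and 0 symbols were updated. Only probe sets with 1 symbol were used for genes, and each gene was read from its brightest one by mean log2 signal. The background floor was the 95th percentile, on each array, of the 87 probe sets that measure 58 of 65 listed tissue-restricted genes. A call required the brighter array above its floor and a difference of 2-fold or more after raising the dimmer signal to its floor. Medians were taken over genes above the floor on at least 1 array. The calculation was tested on simulated data.

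All 37 members could be named, and of the related lists the genes called in a comparison and up to 3 of the brightest. Kdm3a, which meets neither condition, was named as a close relative of members. Members and lists were chosen with earlier results of these data known. Alternatives were quantile normalization and cyclic loess (limma 3.58.1 in R 4.3.3), no floor, the mean over the probe sets of a gene, a 1.5-fold threshold, medians over members above the floor on all arrays, and a floor of 7.5 on the log2 scale.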

Additional observations from a re-analysis of the deposited data

Results flagged for a closer look

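Hspbap1 had opposite signs in the comparisons with and without IL6, with a log2 ratio of 0.79 for NC+IL6 over NC and -0.64 for HC+IL6 over HC. With 1 array per condition this difference was not tested. With the mean over the probe sets of the gene, the first ratio was -0.20. The result rests on a single probe set above the floor, with log2 signals of 7.08, 7.88, 7.35 and 6.71 in NC, NC+IL6, HC and HC+IL6.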

How the results depend on the processing

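With 1 array per condition no replicate could be left out. The labels give no replicate numbers, and an additive fit over the 4 arrays, which would leave 1 residual degree of freedom, was not run. The number of members called for HC and NC, 3 in the report, was 0 after quantile normalization, 0 after cyclic loess, 6 without a floor, 1 (Jmjd1c) with the mean over the probe sets of a gene and 7 with a 1.5-fold threshold, and the median log2 ratio of 0.10 became -0.024, 0.014 and 0.026 with quantile normalization, cyclic loess and the mean. For HC+IL6 and NC+IL6, 4 members became 7 without a floor, 2 (Kdm4c and Kdm5a) with the mean, 9 at 1.5-fold and 2 (Kdm4c and Kdm7a) with a floor of 7.5, an alternative chosen after seeing the data. Jmjd4 changed sign there with the mean, to 0.022, which takes in a probe set under the floor. For NC+IL6 and NC, 2 members became 1 with the mean, 5 at 1.5-fold and 1 (Kdm6b) with the floor of 7.5. For HC+IL6 and HC, 1 member became 2 with quantile normalization, 2 with cyclic loess, 2 without a floor and 6 at 1.5-fold, and the median of 0.06 became 0.12 with the mean. Of the 132 log2 ratios of single members, all moved by less than the pooled SD after both scalings, and 98 did so with the mean, where the other 34 moved further. The sign changed for 6 of the 132 with quantile normalization, 4 with cyclic loess and 21 with the mean, where the HC+IL6 over NC+IL6 ratio of Jmjd4 was the only one called. The cause of these shifts was not tested.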

Other observations

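A probe set annotated to both Kdm6b and 1700064E03Rik was left out of the member's values because it carries 2 symbols. Its log2 signals were 6.85 in NC, 6.02 in HC, 7.28 in NC+IL6 and 7.77 in HC+IL6, and only HC was under its floor. With HC raised to the floor, the log2 ratio was -0.13 for HC over NC, where the probe set used for Kdm6b had 1.04, and 1.06 for HC+IL6 over HC, where the other had 1.15.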
